A study of Canis lupus familiaris with 4 samples.

Results

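Solute carriers are the membrane proteins that move sugars, amino acids, organic acids, ions and vitamins across the plasma membrane and the membranes of organelles. They were read from an Affymetrix canine array experiment in MDCK II cells, an established epithelial line from dog kidney. The genes described here are those of the families SLC1 to SLC24, SLC26 and SLCO, chosen by symbol alone. Only probe sets annotated with 1 gene symbol were used, and the probe set with the highest mean over the arrays stood for its gene. This gave 173 genes, measured by 335 probe sets, of 15115 genes with such a probe set on the array. Symbol matching also took in 4 genes that do not encode a carrier, namely *SLC9A3R1* and *SLC9A3R2*, which encode PDZ scaffolds that bind carriers, *SLC2A4RG*, which encodes a transcription regulator, and *SLC7A6OS*, which lies opposite a carrier gene. The mitochondrial carriers of SLC25 and the families from SLC27 upwards were not counted among the 173.

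The experiment had 4 conditions with 1 array each. Control cells, called wild type in the sample labels and infected with a retrovirus carrying an empty shRNA cassette, and cells labelled as HIF2α knockdown (HIF2α-KD), which carry a retroviral shRNA, were each measured in normoxia (16% O2) and in hypoxia (1% O2). All cells had spent 24 h in normoxia before 24 h at either oxygen level, and both lines had been infected with retrovirus. The empty cassette is known from the methods and not from the labels. The labels do not name the HIF2α-KD line, and the published text names HIF2α-KD#1 for the normoxic arrays.

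In kidney epithelium, glucose enters cells through facilitative carriers of the SLC2 family and through sodium-coupled carriers of the SLC5 family. Lactate and protons leave together through monocarboxylate carriers of the SLC16 family, of which *SLC16A1* and *SLC16A3* need basigin (*BSG*) to reach the plasma membrane. Amino acids are moved by the sodium-coupled SLC1 and SLC6 carriers and by the SLC7 exchangers, several of which pair with the heavy chains *SLC3A1* or *SLC3A2*. Bicarbonate, chloride, phosphate and sulfate move through the SLC4, SLC12, SLC20 and SLC26 families, and SLC9 carriers exchange sodium for protons. In many cell types *SLC2A1* and *SLC16A3* are known as targets of the hypoxia-inducible factors, of which HIF2α, encoded by *EPAS1*, is one.

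*EPAS1* had intensities of 44.6 in control and 47.9 in HIF2α-KD cells in normoxia, and of 116 in control and 32.6 in HIF2α-KD cells in hypoxia. Under the knockdown label the target was lower in hypoxia, but in normoxia it was not. By RT-qPCR the paper found the target mRNA depleted in its knockdown lines, most strongly in the line named for the normoxic arrays. The oxygen level of that measurement is not stated. The normoxic probe set values alone do not show that the knockdown failed. Every normoxic knockdown direction below is that of the array labelled HIF2α-KD. The 4 arrays had medians of 28.2 to 29.1 and highest values of 18723 to 19831, and the reporter probe sets, used as background, had 95th percentiles of 20.6 to 27.2. Of 7 kidney epithelium markers on the array, 4 were above that background on all 4 arrays and *PAX8* and *PAX2* were at background. The remaining marker, *CDH1*, was at background in normoxia, at 15.45 in control and 18.88 in HIF2α-KD cells. In hypoxia it read 119 and 81.4, with hypoxia differences of 2.10 and 1.48. The paper detected E-cadherin, which *CDH1* encodes, as mRNA and as protein in normoxic control cells. The low normoxic probe set values thus do not show that the gene was silent. All 4 fibroblast markers were at background on every array, with a summed intensity of 34.7 to 45.7, the 3 leukocyte markers lay just above it with sums of 85.6 to 119, and of 3 endothelial markers *PECAM1* and *KDR* were at background and *CDH5* was not. The part of other cell types in the differences below was not tested.

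Of the 173 genes, 77 were above the 95th percentile of the reporters on all 4 arrays, 32 on 1 to 3 arrays and 64 on none. A difference was computed only for genes whose highest intensity reached 28.75, the median of all canine values, which 94 genes passed, 90 of them carriers, and 79 did not. The dimmest gene that passed had a highest value of 28.79 and the brightest that did not had 28.6. A gene that is high in only 1 condition passes through that condition, so the counts below are over genes that passed and not over all members. The brightest carrier was *SLC2A1*, the basolateral glucose transporter GLUT1, followed by *SLC5A6*, a sodium-coupled vitamin transporter for biotin and pantothenate, *SLC20A1*, a sodium-phosphate cotransporter, *SLC1A1*, a glutamate transporter, and *SLC6A6*, the taurine transporter. Their order is that of probe set values, which do not rank transcript levels between genes.

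**Figure D1:**
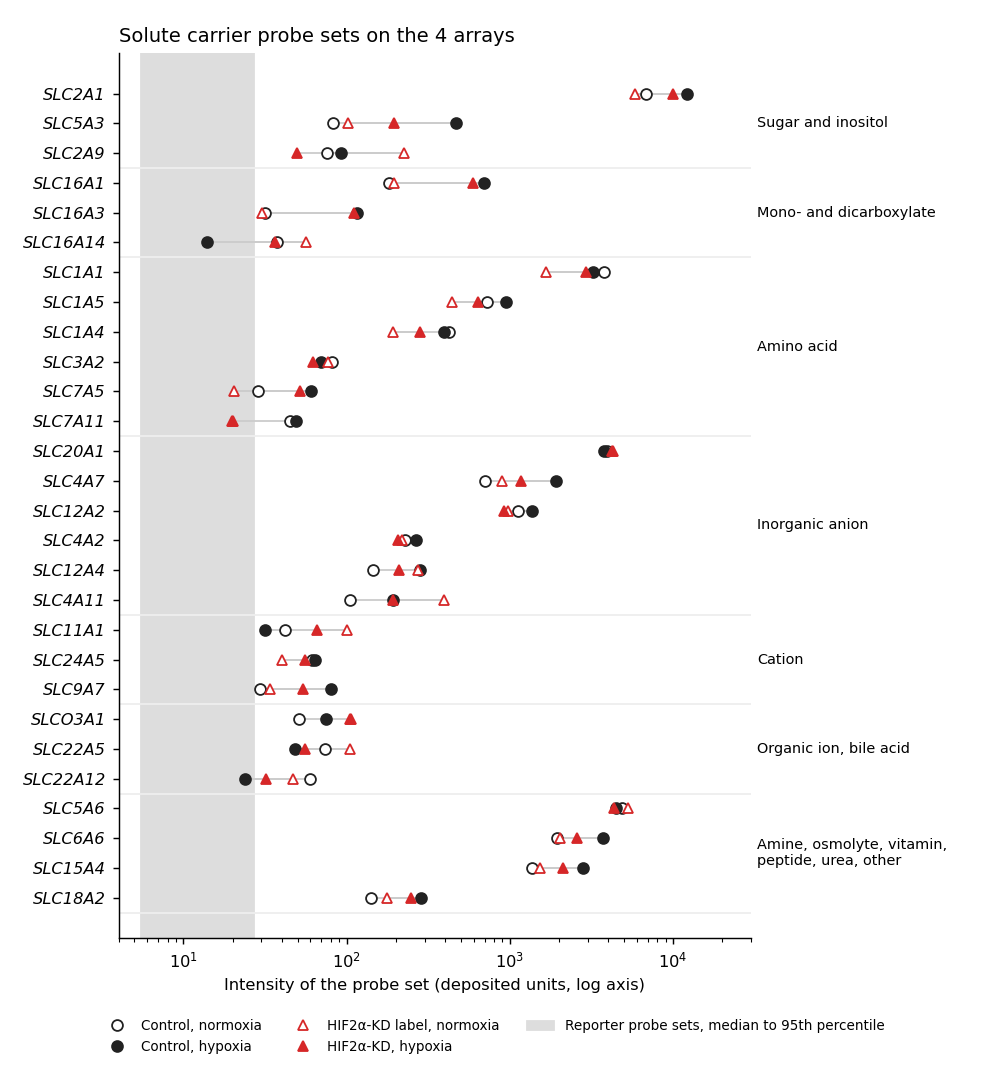
Intensity of the named solute carriers on the 4 arrays (x axis, deposited units, log scale), 1 row per gene, grouped by substrate. Open symbols are normoxia, filled symbols hypoxia, circles control cells, triangles the HIF2α-KD label, and the grey band runs from the median to the 95th percentile of the reporters. Both hypoxic arrays lie to the right of both normoxic arrays for *SLC2A1*, *SLC5A3*, *SLC16A1* and *SLC16A3*. The probe sets drawn for *SLC20A1* and *SLC5A6*, the brightest of each gene, hardly move.

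Differences are given on the scale of log2(intensity + 16), and 2-fold means a difference of at least 1 on it. With 1 array per condition, pairwise differences carry neither an error nor a p-value. The only test is a limma fit of oxygen plus cell line to all 4 arrays, which leaves 1 residual degree of freedom and takes hypoxia to act equally under both labels.

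In hypoxia the glucose transporter *SLC2A1* and the lactate transporters *SLC16A1* and *SLC16A3* rose, and they were the members that passed the test. Further carriers of osmolytes, bicarbonate, protons and peptides were higher in control cells without passing it. In control cells 6 members were at least 2-fold higher in hypoxia and 0 were lower, that is 6.38% of the 94, where 3.58% of all 9741 genes that passed the filter were at least 2-fold different, 3.05% higher and 0.534% lower. The 6 were *SLC5A3*, *SLC16A1*, *SLC16A3*, *SLC4A7*, *SLC9A7* and *SLC15A4*. Under the HIF2α-KD label *SLC16A1* and *SLC16A3* were at least 2-fold higher and *SLC2A9* was at least 2-fold lower, which is 3.19% of members against 1.81% of all genes, of which 1.39% were higher and 0.421% lower. The median over members was 0.13 in control cells and -0.0017 under the HIF2α-KD label, where over all genes it was 0.03 and 0.02. The middle of the members thus lay above that of all genes in control cells and near it under the HIF2α-KD label, where averaging the probe sets of each gene in place of taking the brightest turned the members' median to 0.03.

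*SLC16A1* and *SLC16A3* were the members that were at least 2-fold higher in hypoxia in both lines, and 0.883% of all genes were. With 64 added to the intensity *SLC16A3* was under 2-fold in both lines, at 0.91 and 0.89. A hypoxia difference above 0 in both lines was found for 37 members, 39.4% of them, near the 36.1% of all genes. These hypoxia comparisons share no array, and across the 94 members their differences had a Pearson r of 0.4998, where across all genes it was 0.5266. Genes are not replicates, and the correlation is given as a description. In the limma fit 3 members had an adjusted p under 0.05 for oxygen, all higher in hypoxia, against 2.80% of all genes, of which 2.39% were higher and 0.411% lower. At an unadjusted p under 0.05 there were 19 members, 14 of them higher in hypoxia, against 20.6% of all genes. Over all genes 1280 of these 2005 were higher.

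**Figure D2:**
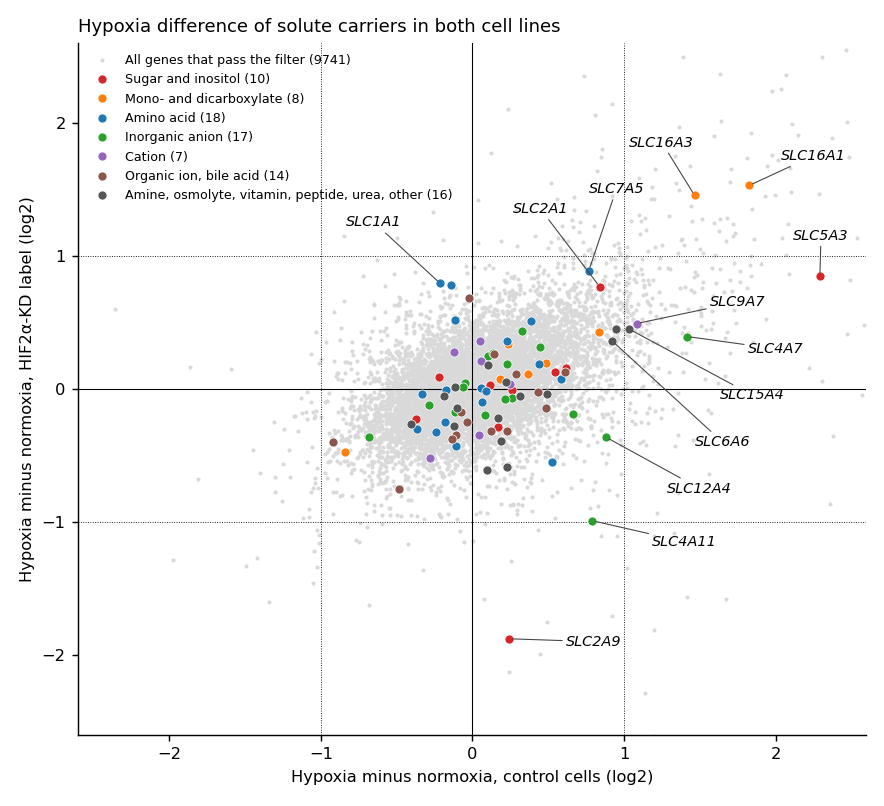
Hypoxia minus normoxia in control cells (x axis) and under the HIF2α-KD label (y axis), both as log2 differences, for the solute carriers coloured by substrate and all other genes that passed the filter in grey (13 genes lie outside the axes). Dotted lines mark 2-fold. *SLC16A1* and *SLC16A3* are past 2-fold on both axes, *SLC5A3* and *SLC4A7* are farther along the x axis than the y axis, and *SLC2A9* lies at 0.24 and -1.88.

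Between the HIF2α-KD label and the control in normoxia, *SLC4A11*, *SLC2A9* and *SLC11A1* were at least 2-fold higher and *SLC1A1* and *SLC1A4* at least 2-fold lower. These 5 are 5.32% of members, against 1.16% of all genes, of which 0.616% were higher and 0.544% lower. In hypoxia *SLC5A3* alone was at least 2-fold different, lower under the HIF2α-KD label, 1.06% of members against 0.975% of all genes, of which 0.103% were higher and 0.873% lower. The median over members was 0.09 in normoxia and -0.08 in hypoxia, and over all genes -0.04 at both. A difference below 0 at both oxygen levels was found for 27 members, 28.7%, against 33.7% of all genes.

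For the knockdown term limma called 0 members and 0 of all genes, though some alternatives called up to 21 genes, none of them a member. At an unadjusted p under 0.05 there were 12 members, 8 of them lower under the HIF2α-KD label, against 9.62% of all genes. Over all genes 732 of these 937 were lower. The smallest adjusted p was 0.1709 over members and 0.05897 over all genes. The knockdown differences at the 2 oxygen levels share no array, and their Pearson r was 0.177 across members and 0.1702 across all genes. Of the 94 members, 83 were under 2-fold in all 4 comparisons and 61 were under 1.5-fold in all 4. The same counts were not made over all genes, so they only describe the members. At 1.5-fold or more there were 19 members in hypoxia in control cells against 14.5% of all genes, and 13 under the HIF2α-KD label against 8.15%. For the knockdown label there were 12 in normoxia against 5.99% and 6 in hypoxia against 6.55%.

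**Figure D3:**
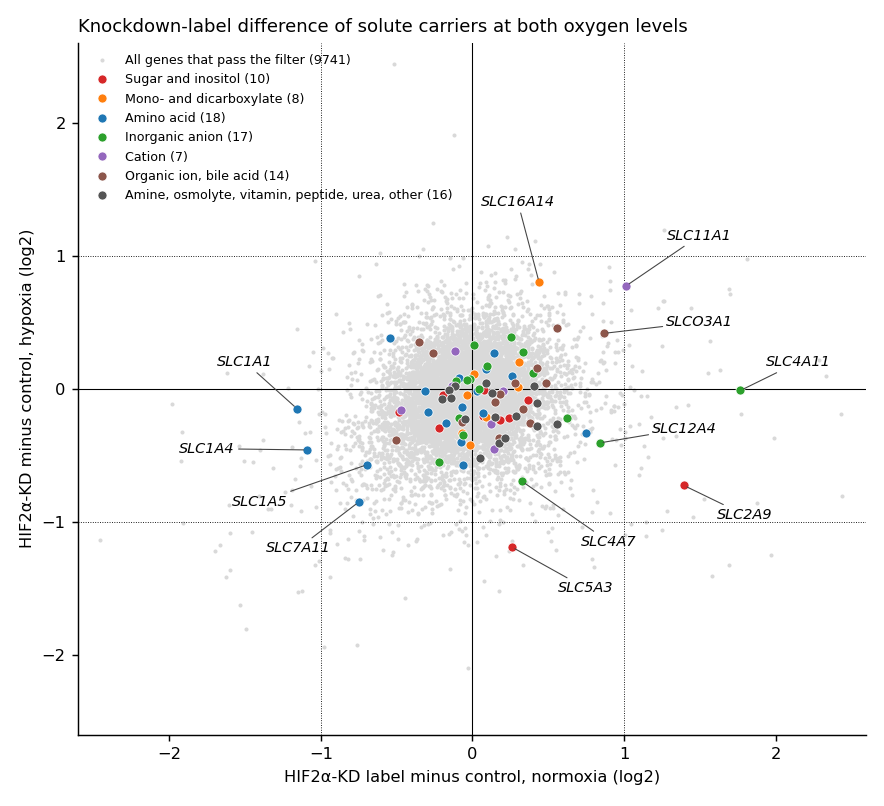
HIF2α-KD label minus control in normoxia (x axis) and in hypoxia (y axis), both as log2 differences, for the solute carriers coloured by substrate and all other genes in grey (3 genes lie outside the axes). *SLC1A5* and *SLC7A11* lie below 0 on both axes, *SLC1A1* and *SLC4A11* are past 2-fold in normoxia and near 0 in hypoxia, and *SLC2A9* lies at 1.39 and -0.73.

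Of the carriers of monocarboxylates and dicarboxylates 8 of 17 passed the filter, and 2 passed the test for oxygen, against 2.80% of all genes. Of these 8, 7 were above 0 in hypoxia in both lines, where 53.2% of all genes were in each line and 36.1% in both. Their median hypoxia difference was 0.43 in control cells and 0.26 under the HIF2α-KD label. With the mean of the probe sets the HIF2α-KD median was 0.15, and 6 of 8 were above 0 there. *SLC16A1* encodes MCT1, the carrier of lactate, pyruvate and ketone bodies found in most tissues. In normoxia its intensity was 183 in control and 196 in HIF2α-KD cells, and in hypoxia 690.3 and 595. Both hypoxic arrays were thus above both normoxic ones, and the lines lay close together at each oxygen level. The hypoxia difference was 1.83 in control cells and 1.53 under the HIF2α-KD label, 3.55-fold and 2.88-fold, and limma gave 1.68 (SE 0.151, adjusted p = 0.005208).

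*SLC16A3* encodes MCT4, the lactate exporter of strongly glycolytic cells. Its normoxic intensities were 31.6 in control and 30.4 in HIF2α-KD cells, just above the reporters, and its hypoxic intensities were 116 and 111. The gene rose in hypoxia by 1.47 in control cells and 1.45 under the HIF2α-KD label, and the limma estimate was 1.46 (SE 0.149, adjusted p = 0.007718). Knockdown differences were -0.04 in normoxia and -0.05 in hypoxia. In RefSeq's dog annotation (UU_Cfam_GSD_1.0) *SLC16A1* overlaps *LRIG2* and *SLC16A3* overlaps *CSNK1D*, and each was measured by 1 probe set with 1 symbol.

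*SLC16A14*, a family member whose substrate is little known, went the other way in direction. Its intensities were 37.5 and 56.6 in normoxia and 13.9 and 36.1 in hypoxia, for control and HIF2α-KD cells in turn, so that the control hypoxia array was within the range of the reporters. Its hypoxia differences were -0.84 and -0.48 and its knockdown differences 0.44 and 0.80, none of them 2-fold. *SLC16A12*, a creatine carrier chosen here after its values were seen, read 86.3 and 85.2 in normoxia and 166 and 120 in hypoxia. Of the rest, *SLC16A4*, *SLC16A5*, *SLC16A13* and *SLC5A12* stayed between 28.4 and 79.9 on every array, and the pyruvate and lactate carrier *SLC16A7* (MCT2) was at 3.81 to 11.9, within the reporters.

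Of the sugar and inositol carriers 10 of 17 passed the filter, and *SLC2A1* passed the test for oxygen, as did 2.80% of all genes. The largest hypoxia difference of any member was that of *SLC5A3* in control cells. *SLC2A1* read 6820.2 in control and 5857 in HIF2α-KD cells in normoxia, and 12219.6 and 9974 in hypoxia. It rose by 0.84 in control cells and 0.77 under the HIF2α-KD label, 1.79-fold and 1.70-fold, with a limma estimate of 0.80 (SE 0.0776, adjusted p = 0.006678). Its dimmer probe sets gave larger differences, 1.30 and 1.90 in control cells and 1.14 and 1.48 under the HIF2α-KD label, so both were past 2-fold where the brightest was not. The brightest read 12219.6 in control hypoxia, where the highest value of that array was 19341. The part of the scanner's upper range in the smaller difference was not tested. The knockdown differences of the brightest were -0.22 in normoxia and -0.29 in hypoxia. Those of the dimmer probe sets were larger, -0.51 and -0.52 in normoxia and -0.67 and -0.94 in hypoxia.

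*SLC5A3* encodes SMIT1, the sodium-coupled myo-inositol transporter through which kidney cells take up this osmolyte. Its intensities were 82.3 in control and 102 in HIF2α-KD cells in normoxia and 466 and 195 in hypoxia. The control hypoxia array was thus well above the other 3, among which the HIF2α-KD hypoxia array was the highest. The hypoxia difference was 2.29 in control cells, 4.90-fold, and 0.84 under the HIF2α-KD label, and the knockdown difference was 0.26 in normoxia and -1.19 in hypoxia. Neither limma term passed (oxygen 1.57, SE 0.311, adjusted p = 0.05452; knockdown adjusted p = 0.7183), and whether the hypoxia difference differs between the lines cannot be tested with 1 array per condition.

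*SLC2A9* encodes GLUT9, which carries urate in the kidney. It stood out on the HIF2α-KD normoxia array, with 225 there against 75.5 in control normoxia, 92.2 in control hypoxia and 49.4 in HIF2α-KD hypoxia. Its hypoxia differences were 0.24 in control cells and -1.88 under the HIF2α-KD label, and those for the knockdown label 1.39 in normoxia and -0.73 in hypoxia, so that both signs occur in each kind of comparison. A dimmer probe set gave 0.07, -1.10, 0.89 and -0.28 in the same order. The comparisons past 2-fold share the normoxic array labelled HIF2α-KD.

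*SLC2A3*, which encodes the high-affinity glucose transporter GLUT3, did not pass the filter on any of its 4 probe sets, and the brightest of them read 18.4 to 24.6. The sodium-glucose cotransporters *SLC5A1* and *SLC5A2*, which take up glucose in intestine and proximal tubule, read 4.51 to 7.79 and 12.1 to 22.3, within the range of the reporters. *SLC2A8*, an intracellular glucose transporter chosen after its values were seen, read 255 in control and 220.4 in HIF2α-KD cells in normoxia and 193 and 186 in hypoxia. In hypoxia all 10 sugar and inositol carriers that passed were lower under the HIF2α-KD label than in control, with a median of -0.21, where 55.7% of all genes were lower and their median was -0.04. After quantile normalization 8 of 10 were lower, and with the mean of the probe sets 9 of 10.

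**Figure D4:**
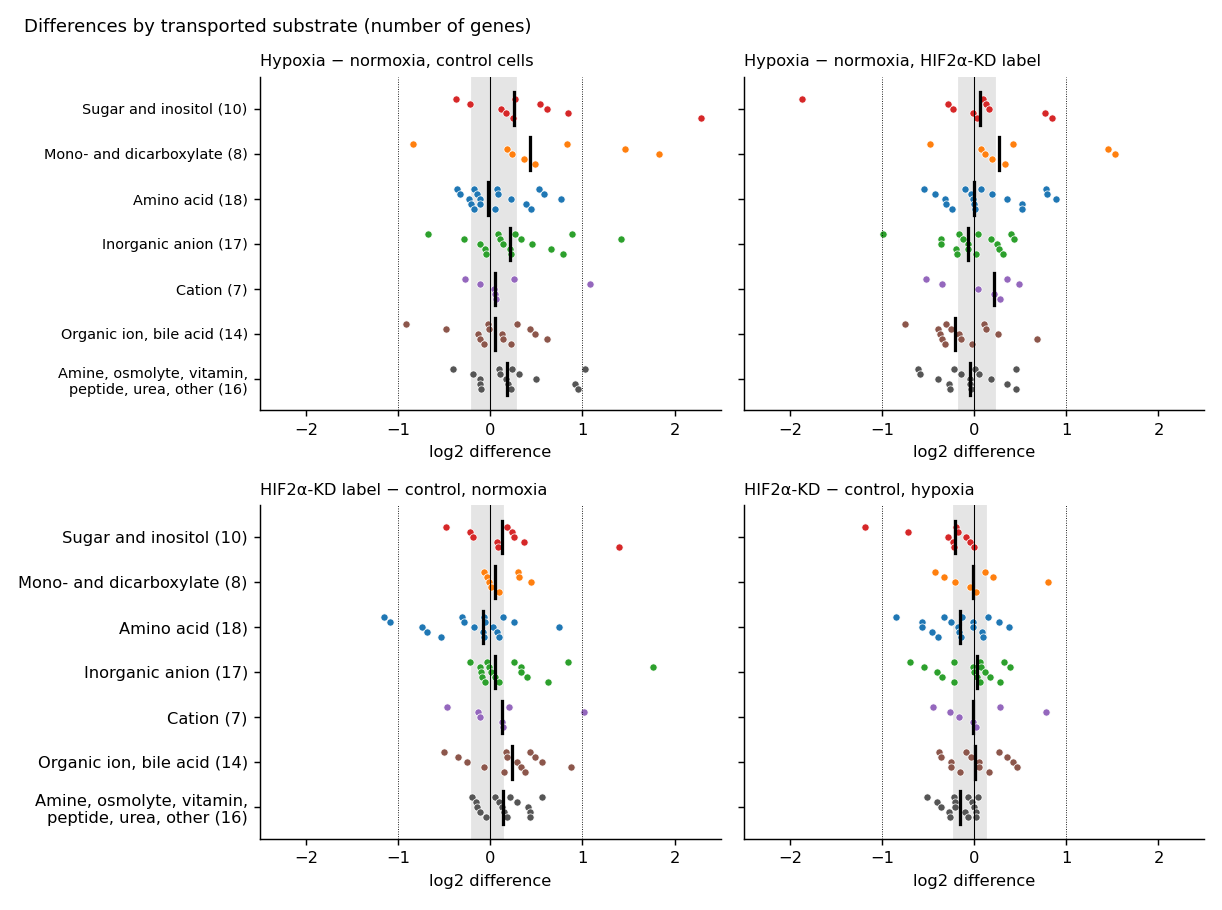
Log2 differences (x axis) of the solute carriers that passed the filter, by transported substrate (y axis, with the number of genes), in the 4 comparisons. Each point is 1 gene, black bars are medians, the grey band holds the middle of all genes from the 25th to the 75th percentile, and dotted lines mark 2-fold. The monocarboxylate and dicarboxylate median is at 0.43 and 0.26 in the hypoxia panels, and that of amino acid carriers is at -0.03 and 0 or just below.

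Of 31 amino acid carriers 18 passed the filter, and in hypoxia 9 of 18 were above 0 in each line, against 53.2% of all genes, with medians of -0.03 and -0.0017 that turned to 0.08 and 0.04 with the mean of the probe sets. Under the HIF2α-KD label 12 of 18 were below 0 in normoxia, against 56.5% of all genes, and 13 of 18 in hypoxia, against 55.7%, with medians of -0.08 and -0.16 against -0.04 over all genes at both oxygen levels. No amino acid carrier passed either limma term, where 2.80% of all genes passed for oxygen and 0 for the knockdown. At an unadjusted p under 0.05 there were 4 members for the knockdown, all lower, against 9.62% of all genes. For oxygen there were 2, both higher, against 20.6%. Over all genes most such differences had these directions too, 732 of 937 lower for the knockdown and 1280 of 2005 higher for oxygen.

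*SLC1A1* encodes EAAT3, a glutamate and aspartate transporter of epithelia and neurons. It read 3757 in control and 1676 in HIF2α-KD cells in normoxia, and 3237 and 2915 in hypoxia. The HIF2α-KD normoxia array was thus lower than the other 3, at a knockdown difference of -1.16, where that in hypoxia was -0.15. *SLC1A4*, which encodes the neutral amino acid exchanger ASCT1, read 425 and 191 in normoxia and 392 and 281 in hypoxia, again lowest on the HIF2α-KD normoxia array. Its knockdown differences were -1.09 and -0.46, and a dimmer probe set gave -1.42 and -0.20. That dimmer set read 154 and 47.45 in normoxia and 67.5 and 56.8 in hypoxia, so the control normoxia array stood apart on it. Its hypoxia differences were -1.02 in control cells and 0.20 under the HIF2α-KD label, where the brightest gave -0.11 and 0.52.

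*SLC1A5* encodes ASCT2, through which many cells take up glutamine. Its intensities were 724 in control and 441 in HIF2α-KD cells in normoxia, and 952 and 636 in hypoxia. The HIF2α-KD value was lower at each oxygen level, with differences of -0.69 and -0.57 (limma knockdown -0.63, SE 0.141, adjusted p = 0.2299). *SLC7A11*, which encodes the cystine-glutamate exchanger xCT, read 44.9 and 20.2 in normoxia and 48.7 and 19.9 in hypoxia. Its knockdown differences were -0.75 and -0.85, and both HIF2α-KD values lay within the range of the reporters (limma knockdown -0.80, SE 0.178, adjusted p = 0.2299).

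*SLC7A5* encodes LAT1, the exchanger of large neutral amino acids. It read 28.7 in control and 20.5 in HIF2α-KD cells in normoxia, at the level of the reporters, and 60.1 and 51.5 in hypoxia. The hypoxia differences of 0.77 and 0.89 missed the threshold in the limma fit (oxygen 0.83, SE 0.17, adjusted p = 0.05957). Its heavy chain *SLC3A2* (4F2hc) read 81.2, 76.5, 69.8 and 62.0 in control normoxia, HIF2α-KD normoxia, control hypoxia and HIF2α-KD hypoxia. On this brightest probe set it differed by at most 0.25 in size. A dimmer *SLC3A2* probe set gave hypoxia differences of 0.43 in control cells and -0.07 under the HIF2α-KD label, where the brightest gave -0.18 and -0.25. For the knockdown in hypoxia the dimmer set gave -0.44 and the brightest -0.14. Of the amino acid carriers named, *SLC7A5* alone was at least 1.5-fold higher in hypoxia in both lines.

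Among inorganic anion carriers, of which 17 of 36 passed the filter, 12 of 17 were above 0 in hypoxia in control cells and 8 of 17 under the HIF2α-KD label, with medians of 0.21 and -0.07, where 53.2% of all genes were above 0 in each. With the mean of the probe sets 9 of 17 were above 0 under the HIF2α-KD label, with a median of 0.03. None passed a limma term, where 2.80% of all genes passed for oxygen and 0 for the knockdown. *SLC4A7* encodes NBCn1, a sodium-bicarbonate cotransporter that brings base into cells. It read 706 in control and 890.1 in HIF2α-KD cells in normoxia, and 1911 and 1173 in hypoxia. Both hypoxic arrays were above both normoxic ones, and the control hypoxia array was the highest. The hypoxia difference was 1.42 in control cells and 0.39 under the HIF2α-KD label (limma oxygen 0.90, SE 0.238, adjusted p = 0.1019). Its dimmer probe sets gave 1.58 and 0.99 in control cells and 0.50 and 0.33 under the HIF2α-KD label.

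*SLC4A11* encodes a member of the bicarbonate family that is known from inherited corneal dystrophy. It read 105 in control and 397 in HIF2α-KD cells in normoxia, and 194 and 192 in hypoxia. The HIF2α-KD normoxia array was thus the highest and the hypoxic arrays were alike, with knockdown differences of 1.77 and -0.01 and hypoxia differences of 0.79 and -0.99. A dimmer probe set read 49.4 to 59.2 over the arrays and gave -0.06 for the knockdown in normoxia, so the 3.41-fold difference was seen on 1 of 2 probe sets.

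*SLC12A4* encodes KCC1, a potassium-chloride cotransporter that lowers cell volume. It read 146 in control and 273 in HIF2α-KD cells in normoxia, and 282 and 208 in hypoxia, so that the control normoxia array was the lowest. *SLC12A2* encodes the basolateral sodium-potassium-chloride cotransporter NKCC1. It read 1129 and 968 in normoxia and 1359 and 923 in hypoxia, with knockdown differences of -0.22 and -0.55, and its other probe sets were below 0 as well at both oxygen levels. The chloride-bicarbonate exchanger gene *SLC4A2* (AE2) read 206 to 267, and *SLC20A1* (PiT1) read 3788 to 4262. A dimmer *SLC20A1* probe set gave hypoxia differences of 0.50 in control cells and 0.27 under the HIF2α-KD label. The brightest gave -0.06 and 0.01. *SLC17A5*, the sialic acid exporter of lysosomes, stood in this list by its symbol and was chosen after its values were seen. It read 224 and 226 in normoxia and 134 and 172 in hypoxia. Its hypoxia differences were -0.68 in control cells and -0.36 under the HIF2α-KD label. A dimmer probe set gave -0.22 and -0.25, and another gave 0.11 and 0.16.

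Of the cation carriers 7 of 15 passed the filter. *SLC9A7* encodes NHE7, a sodium-proton exchanger of the Golgi, and read 29.4 in control and 34.0 in HIF2α-KD cells in normoxia and 80.3 and 54.3 in hypoxia. Both hypoxic arrays were above both normoxic ones, at differences of 1.08 and 0.49 (limma adjusted p = 0.08934). *SLC11A1* encodes NRAMP1, a divalent metal transporter of phagocytes. It read 41.8 and 101 in normoxia and 31.6 and 65.4 in hypoxia, so that both HIF2α-KD arrays were above both control arrays, at differences of 1.02 and 0.77 (limma knockdown 0.89, SE 0.160, adjusted p = 0.1709). A dimmer probe set gave 0.23 and -0.10, and the summed leukocyte markers stood between 85.6 and 119. *SLC24A5*, which encodes a potassium-dependent sodium-calcium exchanger, read 39.9 to 64.3 and was under 1.5-fold in every comparison.

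Of the carriers of organic ions and bile acids 14 of 30 passed the filter. Of these, 0 were 2-fold different in any comparison, where 0.975% to 3.58% of all genes were in each. In hypoxia in control cells 7 of 14 were above 0, against 53.2% of all genes. Their median there was 0.05 and turned to -0.02 with the mean of the probe sets. In hypoxia under the HIF2α-KD label 10 of 14 were below 0, against 46.8% of all genes, with a median of -0.21. For the knockdown label 10 of 14 were above 0 in normoxia, against 43.5% of all genes, with a median of 0.23, and 7 of 14 in hypoxia, with a median of 0.0044. *SLC22A5* encodes OCTN2, the carnitine transporter. It read 74.1 in control and 105 in HIF2α-KD cells in normoxia and 48.5 and 55.7 in hypoxia, lower on both hypoxic arrays at differences of -0.48 and -0.75, while its other probe set gave 0.40 and -0.16. *SLC22A12*, which encodes the urate exchanger URAT1, read 59.4 and 47.1 in normoxia and 23.8 and 31.9 in hypoxia, with hypoxia differences of -0.92 and -0.40. *SLCO3A1*, a carrier of organic anions such as prostaglandins, read 51.2 and 107 in normoxia and 74.8 and 105 in hypoxia, above control under the HIF2α-KD label at both oxygen levels, by 0.87 and 0.42.

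Among the carriers of amines, osmolytes, vitamins, peptides and urea 16 of 23 passed the filter, with medians in hypoxia of 0.18 in control cells and -0.05 under the HIF2α-KD label. *SLC15A4* encodes a proton-coupled carrier of histidine and small peptides in lysosomes. Its intensities were 1359 and 1536 in normoxia and 2796 and 2103 in hypoxia for control and HIF2α-KD cells. Its hypoxia differences were 1.03 and 0.45 (limma adjusted p = 0.07018), and both other probe sets gave larger ones, 1.63 and 1.51 in control cells. *SLC6A6*, the taurine transporter, read 1953 and 2018 in normoxia and 3717 and 2591 in hypoxia. Taurine is an osmolyte, as is the myo-inositol carried by *SLC5A3*, and for both genes the control hypoxia array was the highest, with a hypoxia difference for *SLC6A6* of 0.92 in control cells and 0.36 under the HIF2α-KD label (limma adjusted p = 0.08404). The betaine transporter *SLC6A12*, another osmolyte carrier, chosen after its values were seen, read 32.2 to 47.2.

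*SLC18A2* encodes VMAT2, which loads monoamines into vesicles. It read 141 and 176 in normoxia and 287 and 246 in hypoxia, both hypoxic arrays above both normoxic ones, and in RefSeq it overlaps *PDZD8*. On its brightest probe set *SLC5A6* read 4365 to 5292 and differed by at most 0.28 in size, and in RefSeq it overlaps *ATRAID*. A dimmer probe set of *SLC5A6* read 498 and 598 in normoxia and 772 and 770 in hypoxia. Its hypoxia differences were 0.62 in control cells and 0.36 under the HIF2α-KD label, where the brightest gave -0.12 and -0.28. Another dimmer one gave -0.06 and -0.0085. Of the genes that share a symbol but are no carriers, *SLC9A3R1* (NHERF1) read 672 and 417 in normoxia and 637 and 469 in hypoxia, lower under the HIF2α-KD label at differences of -0.67 and -0.43, and its other probe set gave 0.21 and -0.36. *SLC9A3R2* and *SLC7A6OS* read 26.2 to 43.6.

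Genes with several probe sets offered a further check within the same RNA, though not a replicate. For the members at least 1.5-fold different by their brightest probe set, the other probe sets that passed the filter had the same sign for 11 of 13 in hypoxia in control cells, 10 of 11 under the HIF2α-KD label, 4 of 7 for the knockdown label in normoxia and 3 of 4 in hypoxia. The probe sets of *SLC2A1*, *SLC4A7*, *SLC15A4* and *SLC6A6* had the same sign in both hypoxia comparisons, and those of *SLC4A11* had opposite signs in 2 of the 4 comparisons.

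**Figure D5:**
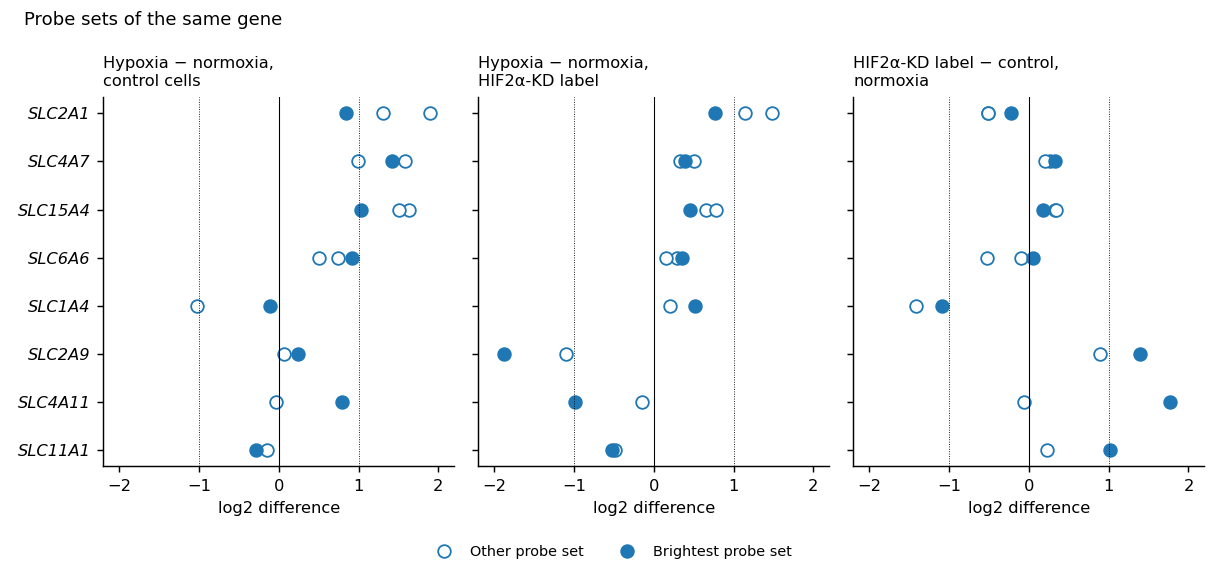
Log2 differences (x axis) from each probe set that passed the filter, for 8 solute carriers (y axis) in 3 comparisons. Filled points are the brightest probe set of the gene and open points the others, and dotted lines mark 2-fold. All 3 *SLC2A1* probe sets are above 0 in both hypoxia panels, and the *SLC4A11* probe sets stand at 1.77 and -0.06 in the right panel.

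The partners of these carriers were read from a list chosen with earlier results of these data known. *BSG*, the chaperone of *SLC16A1* and *SLC16A3*, read 112 and 90.3 in normoxia and 132 and 120 in hypoxia, with hypoxia differences of 0.22 and 0.36. *LDHA*, the enzyme that makes lactate, read 10806 and 9269 in normoxia and 15537 and 15385 in hypoxia, and rose in the limma fit (0.63, SE 0.0773, adjusted p = 0.0142). *HK2*, the hexokinase that traps glucose, read 76.1 and 99.3 in normoxia and 117 and 115 in hypoxia (adjusted p = 0.2537). *TXNIP*, known to promote the removal of *SLC2A1* from the cell surface, read 1611 and 1730 in normoxia and 705 and 1502 in hypoxia, so that the control hypoxia array was the lowest, at a hypoxia difference of -1.17 there and -0.20 under the HIF2α-KD label.

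Of the 10 chaperones and regulators that passed the filter, limma called 1 for oxygen, against 2.80% of all genes. This was *OXSR1*, a kinase that acts on SLC12 cotransporters and was named after its values were seen. It read 240.2 and 158 in normoxia and 486 and 299 in hypoxia (0.92, SE 0.140, adjusted p = 0.02621). *WNK4*, a kinase upstream of it, read 79.3 and 101 in normoxia and 46.9 and 41.9 in hypoxia. *NEDD4*, a ubiquitin ligase, was highest on the HIF2α-KD normoxia array, at 115 against 32.8 to 42.1 on the others. *CA12*, a membrane carbonic anhydrase that works beside bicarbonate carriers, read 21.5 and 28.9 in normoxia and 77.1 and 53.7 in hypoxia, with differences of 1.31 and 0.63. Of 4 sodium pump genes that passed, 0 were 1.5-fold different in any comparison, where 5.99% to 14.5% of all genes were in each.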

How the data were processed

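RNA from 4 MDCK conditions was labelled by the authors with biotin by a 3' IVT kit and hybridised to 1 canine array each. The deposited values are linear intensities, 1 per probe set and array. How probes were summarized, background-corrected and scaled, and by which software, is not given in the sources used here, and the number of arrays limits the precision. Probe sets with 1 symbol were named from the platform annotation, and 168 of 173 members were found in RefSeq by gene ID. The filter kept genes whose highest intensity reached 28.75, and 16 was added before log2. Reporter background used 63 of 64 probe sets. Python 3.11.15 (pandas 2.3.3) and R 4.3.3 with limma 3.58.1 (additive terms, intensity trend, Benjamini-Hochberg adjustment over 9741 genes at 0.05) were used, tested on simulated data first. The members, functional lists and partner list were chosen with earlier results of these data known. Named members were those at least 2-fold different, called by limma, the 3 with the largest difference in each list, the 5 brightest and a short list of textbook carriers. Any other gene named was picked with its values known. Alternatives were other pseudocounts, normalizations, filters, probe set rules, folds and limma settings. No promoter or protein sequence was used here.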

Additional observations from a re-analysis of the deposited data

Results flagged for a closer look

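For *SLC4A11* the hypoxia difference was 0.79 in control cells and -0.99 under the HIF2α-KD label, opposite in sign on 1 array per condition, and the difference between them was not tested. Its dimmer probe set gave -0.04 and -0.14. For *SLC2A9* the knockdown-label difference was 1.39 in normoxia and -0.73 in hypoxia, also opposite in sign and not tested, and its dimmer probe set gave 0.89 and -0.28.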

How the results depend on the processing

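No paired analysis was possible because each condition has 1 array and replicate numbers only name it, and no array could be left out of the limma fit, which would then have 0 residual degrees of freedom. Members at least 2-fold different numbered 6 and 3 for hypoxia in control cells and under the HIF2α-KD label, and 5 and 1 for the knockdown label in normoxia and in hypoxia. A pseudocount of 1 gave 12, 6, 9 and 4, where the shares of all genes were 6.09%, 3.42%, 2.39% and 2.31% against 3.58%, 1.81%, 1.16% and 0.975%, and a 1.5-fold limit gave 19, 13, 12 and 6 (all genes 14.5%, 8.15%, 5.99% and 6.55%). A pseudocount of 64 and the mean of the probe sets each gave 3 for the knockdown label in normoxia (all genes 0.667% and 0.892%), and no filter gave 3 for it in hypoxia (all genes 0.688%). With a pseudocount of 64 *SLC16A3* in both lines (0.91 and 0.89), *SLC9A7* in control cells (0.63), and *SLC1A4* (-0.94) and *SLC11A1* (0.64) in normoxia were under 2-fold, as were *SLC11A1* (0.62) and *SLC4A11* (0.85) with the mean of the probe sets. The median knockdown difference in hypoxia moved to -0.2174 with the filter at the 75th percentile. For oxygen limma called 3 members, 5 with a pseudocount of 1 (adding *SLC5A3* and *SLC7A5*), 8 after quantile normalization, 6 after median centring and 5 with robust moderation, while the calls over all genes went from 273 to 369, 478, 433 and 445. With the filter at the 75th percentile it called 2, *SLC16A1* and *SLC2A1*, *SLC16A3* being filtered out, and without the trend also 2. *SLC16A1* was called in 9 of 9 alternatives and *SLC16A3* in 8 of 8, and *SLC2A1* in 8 of 9, with an adjusted p of 0.0714 without the intensity trend. The cause was not tested. For the knockdown limma called 0 members in every alternative run, while over all genes it called 10 and 4 with pseudocounts of 1 and 64, 16 after quantile normalization, 15 after median centring and 21 with robust moderation. Of the named values 696 differences kept within their limits, 120 moved and 0 changed sign while at least 2-fold. Depth is not given for arrays, and differences of probe sets near the reporters are limited by background.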

Other observations

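Carriers outside these families were read beside them. Of the mitochondrial carriers of SLC25, 31 of 41 passed the filter, and limma called 1 for oxygen, a share near the 2.80% of all genes. This was *SLC25A36*, a pyrimidine nucleotide carrier. It read 116 and 67.7 in normoxia and 331 and 161 in hypoxia for control and HIF2α-KD cells, with hypoxia differences of 1.39 and 1.08 (limma adjusted p = 0.01266). Of the families from SLC27 upwards, 69 of 96 passed and limma called 0 in either term, where 7 had an unadjusted p under 0.05 for oxygen, against 20.6% of all genes, and 4 for the knockdown, against 9.62%. In control cells *SLC36A4*, an amino acid carrier, was the member of these at least 2-fold higher in hypoxia, at 214 against 86.2, a difference of 1.17, and under the HIF2α-KD label it read 123 against 103.

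The amino acid carriers *SLC38A1* and *SLC38A2*, which bring glutamine and other neutral amino acids into cells and were chosen after their values were seen, were lower under the HIF2α-KD label at both oxygen levels. Of the 11 members of SLC36, SLC38 and SLC43 that passed the filter, 7 were above 0 for the knockdown label in normoxia, with a median of 0.02, and 6 in hypoxia, with a median of 0.03. *SLC38A1* read 3340.0 and 2097 in normoxia and 3267 and 2257 in hypoxia, with knockdown differences of -0.67 and -0.53 (limma adjusted p = 0.1774). *SLC38A2* read 43.7 and 25.01 in normoxia and 98.5 and 44.4 in hypoxia, with knockdown differences of -0.54 and -0.92 (limma adjusted p = 0.253).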
